A study of Danio rerio and Garra andruzzii with 24 samples.

Results

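Cultured cells of the blind cavefish Phreatichthys andruzzii were compared after 3 h and after 1 h of blue light, which covers the window in which fast stress transcripts can recede and slower ones can start. The members were the 3 EPA libraries labelled 3 h and the 3 labelled 1 h, 6 of the 24 libraries in the series, chosen by their labels alone. EPA is a cavefish cell line derived from embryos, grown in L-15 medium with 20% fetal bovine serum, while PAC-2 had 15%, so serum and line cannot be told apart in any comparison of the lines. All cultures had 2 days of darkness before the 468 nm light, and the series also holds EPA cells at 0 h and 6 h and the zebrafish line PAC-2 at 0, 1, 3 and 6 h, with 3 libraries at each time. No dark library was taken after 0 h, so the light and the time elapsed since it was switched on cannot be told apart at any step. The labels give replicate numbers without saying whether these are separate cultures, so p-values measure only the spread between these libraries.

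The cavefish has lived underground for a very long time and has lost its eyes, and its cells are known for lacking the light-driven clock response that fish cell lines usually carry. Blue light absorbed by flavins and porphyrins makes reactive oxygen species inside cells. Cells meet these with glutathione, a tripeptide of glutamate, cysteine and glycine, and many of its genes are under the transcription factor Nrf2, which Keap1 holds back. A shortage of amino acids or other stress can also raise ATF4, whose targets include amino acid transporters, serine and glycine enzymes and aminoacyl-tRNA synthetases, the enzymes that load amino acids onto tRNAs.

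The EPA libraries at 3 h held 30896108 to 40053900 counts, against 28591502 to 33895540 at 1 h. Of 25656 genes assembled by the Trinity program, 11079 carried a UniProt protein name and 23118 passed the filter on low counts. Fibroblast markers were present, with 16 of 24 listed names above 10 CPM (read counts scaled to the same library size) and summed levels of 4506 to 4615 CPM at 3 h and 4447 to 4580 at 1 h. Epidermal markers, mostly keratins, were also present, with 6 of 17 names above that level and summed levels of 7705 to 7778 at 3 h and 7941 to 8035 at 1 h, lower at 3 h, and their part in the results was not tested. The single endothelial marker found was at 289 to 299 CPM at 3 h and 304 to 310 at 1 h. Muscle, neural and blood markers each summed to at most 135 CPM in any of the 6 libraries, and no pigment or liver marker was found by name. A lower share of cells of a type and less RNA per cell cannot be told apart in bulk libraries.

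Most changes that edgeR called between the times were small in size, and more genes were called higher than lower. At the thresholds of the study, a log2 fold change of 1 or more in size together with an adjusted p under 0.001, 2 Trinity genes were higher at 3 h (0.00865% of those tested) and 0 were lower (0%). The same test left 922 genes higher (3.99%) and 793 lower (3.43%) at an unadjusted p under 0.05, and DESeq2 called 57 higher and 60 lower at the thresholds of the study. With any fold change at an adjusted p under 0.05 (edgeR's quasi-likelihood test, Benjamini-Hochberg adjustment), 93 were higher (0.402%) and 25 were lower (0.108%), and these 118 (0.51%) are described here. Of them, 70 of the higher and 17 of the lower genes carried a protein name. In all 118 the 3 libraries at 3 h lay beyond the 3 at 1 h, as they did in 16.3% of all genes tested. The median log2 fold change of the 93 was 0.42, and 62 of them changed by less than 0.5. When each of the 12 EPA libraries was left out in turn, 37 of the 93 and 5 of the 25 stayed below an adjusted p of 0.05 each time, while the total called ranged from 42 to 91 higher and from 7 to 32 lower. With the 6 libraries at 1 h and 3 h alone, the totals were 20 higher and 2 lower. Most of the 118 calls were lost there, and only some of these losses are given below.

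**Figure D1:**
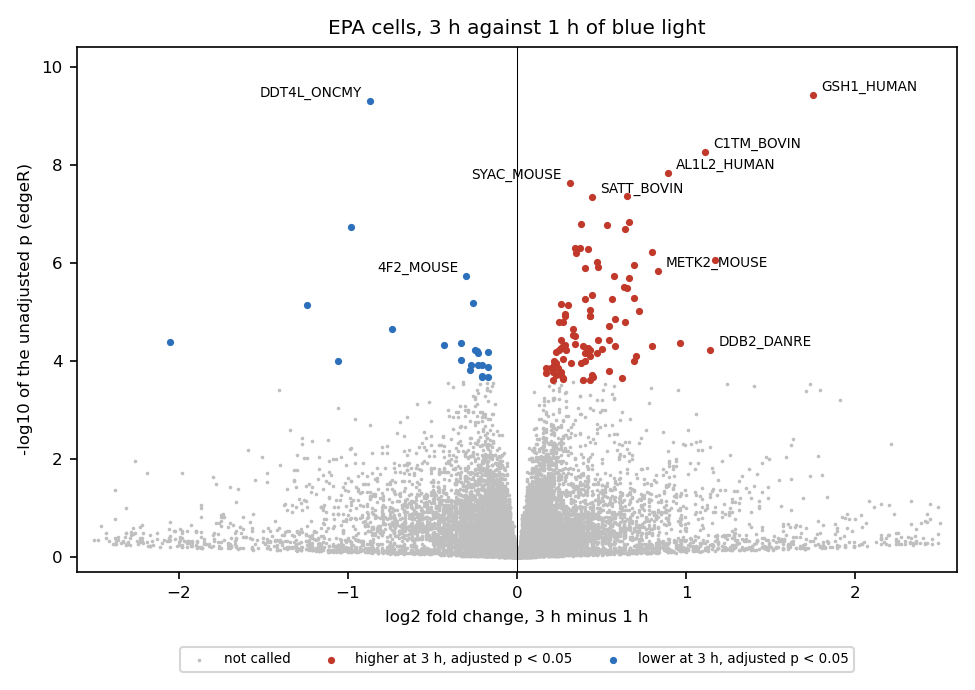
Each point is 1 Trinity gene of EPA cells, with its log2 fold change (3 h minus 1 h) across and the negative log10 of its unadjusted p (edgeR) upwards. Coloured points have an adjusted p under 0.05; 459 genes beyond a log2 value of 2.5 lie outside the axis, 2 of them called, and GSH1_HUMAN and DDT4L_ONCMY stand highest on either side.

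Glutathione synthesis held the gene with the largest fold change among those called higher. GSH1_HUMAN (GCLC), the catalytic subunit of the rate-limiting enzyme of glutathione synthesis, had normalised read counts of 2389, 2528 and 2521 at 3 h, against 682, 763 and 762 at 1 h. Every library at 3 h was more than any at 1 h, with a 3.37-fold ratio of the means and a log2 fold change of 1.75 ± 0.07 (SE, adjusted p = 5.8e-06, edgeR). In the other EPA libraries it averaged 586 ± 13.2 at 0 h and 5601 ± 459 at 6 h (SD, n = 3 each). The 3 libraries at 1 h lay above the mean in the dark, by a step that did not pass the test, and the rise went on after 3 h. The step from 0 h to 1 h was 0.33 on the log2 scale (adjusted p = 0.14, edgeR) and the step from 3 h to 6 h was 1.18 (adjusted p = 0.00015, edgeR); both share libraries with the 3 h against 1 h contrast.

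Its partner subunit was also higher. GSH0_RAT (GCLM), the modifier subunit of that enzyme, had 1895, 1893 and 1951 normalised counts at 3 h, against 1149, 1243 and 1233 at 1 h. The groups did not overlap, and the log2 fold change was 0.66 ± 0.05 (adjusted p = 0.00038, edgeR). GSHR_RAT, glutathione reductase, which returns oxidised glutathione to its reduced form, had 3205, 3327 and 3235 at 3 h and 2268, 2436 and 2290 at 1 h, a log2 fold change of 0.48 ± 0.04 (adjusted p = 0.0013, edgeR). CBS_MOUSE, cystathionine beta-synthase, the entry to the transsulfuration route from homocysteine to cysteine, had 4376, 4392 and 4414 at 3 h and 3474, 3342 and 3577 at 1 h, a log2 fold change of 0.34 ± 0.03 (adjusted p = 0.00082, edgeR). In all 3 of these genes the lowest library at 3 h exceeded the highest at 1 h, and none lost its call when 1 library was left out. With the 6 libraries at 1 h and 3 h alone, the CBS_MOUSE call was lost (adjusted p = 0.053, edgeR). Another cystathionine beta-synthase name, CBS_HUMAN, was not called and stood at -0.07 in EPA with counts summed per name. CGL_HUMAN, cystathionine gamma-lyase, the enzyme after CBS, had a log2 fold change of 0.33 ± 0.04 (adjusted p = 0.013, edgeR), and its call was lost when either of the first 2 libraries at 1 h, or 3 h replicate 1 or 3, was left out.

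Of the 42 Trinity genes tested from the list of Nrf2 targets and redox enzymes, 7 were higher at 3 h and 0 lower at an adjusted p under 0.05. The higher share was 16.7%, against 0.402% of all genes, and 0.108% of all genes were lower. The median log2 fold change of the list was 0.11, against -0.00069 over all genes tested. The lists hold named genes only, and of the 10739 named genes tested 70 were higher. All lists were chosen with earlier results of these data known, so such shares are no independent evidence. Besides the genes above, FRIM_SALSA, a ferritin subunit that stores iron, was called, with 27799, 27491 and 29115 at 3 h and 21361, 21405 and 21183 at 1 h. That was 32.0% higher at 3 h, with no overlap (log2 fold change 0.40 ± 0.04, adjusted p = 0.0014, edgeR). BACH1_MOUSE, a heme-sensing repressor of Nrf2 target genes, had 255, 259 and 307 at 3 h and 155, 170 and 181 at 1 h (0.70 ± 0.10, adjusted p = 0.023, edgeR); its other assembled gene stood at 0.04 ± 0.08 (adjusted p = 0.99, edgeR), and the pair may share reads. The BACH1 call was lost without any 1 of the 6 libraries at 3 h and 1 h, or without 0 h replicate 1.

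Sulfiredoxin and a sugar-phosphate enzyme completed the list. SRXN1_HUMAN, sulfiredoxin, which repairs over-oxidised peroxiredoxins, had 1092, 1042 and 1173 at 3 h and 904, 764 and 751 at 1 h (0.45 ± 0.08, adjusted p = 0.044, edgeR), and its call was lost without each library in turn except 1 h replicate 1. 6PGD_HUMAN, an NADPH-forming enzyme of the pentose phosphate pathway, had a log2 fold change of 0.29 ± 0.04 (adjusted p = 0.019, edgeR), and its call was lost without any 1 of the 6 libraries at 3 h and 1 h. HMOX_TAKRU, heme oxygenase, the enzyme that breaks down heme, had 5478, 5560 and 5508 at 3 h and 4585, 4863 and 4836 at 1 h; the libraries did not overlap, yet the adjusted p was 0.079 (0.21 ± 0.04, edgeR), short of the threshold.

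Further genes outside that list, among them regulators of the same pathway, were picked after their values were seen. KEP1B_DANRE, one of the Keap1 proteins of zebrafish, had 1280, 1408 and 1408 at 3 h and 799, 895 and 913 at 1 h. That was 57.1% higher at 3 h with no overlap (0.65 ± 0.07, adjusted p = 0.0026, edgeR). The second Keap1 name, KEP1A_DANRE, had 887, 884 and 917 at 3 h and 739, 728 and 715 at 1 h (0.30 ± 0.03, adjusted p = 0.0047, edgeR), a smaller change. MAFF_CHICK, a small Maf protein of the kind that pairs with Nrf2 on DNA, was the only member called, in either direction, of the 20 genes tested from the list of immediate early transcription factors, with 4414, 4619 and 4635 at 3 h and 3575, 3615 and 3528 at 1 h (0.35 ± 0.03, adjusted p = 0.00085, edgeR). Over all genes tested, 0.51% were called in either direction. OSGI2_HUMAN, named for a growth inhibitor induced by oxidative stress, rose as well, with 557, 599 and 602 at 3 h and 339, 370 and 382 at 1 h (0.69 ± 0.06, adjusted p = 0.0013, edgeR). The calls of KEP1B, KEP1A and OSGI2 were lost with the 6 libraries at 1 h and 3 h alone (adjusted p = 0.074, 0.1 and 0.059, edgeR).

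**Figure D2:**
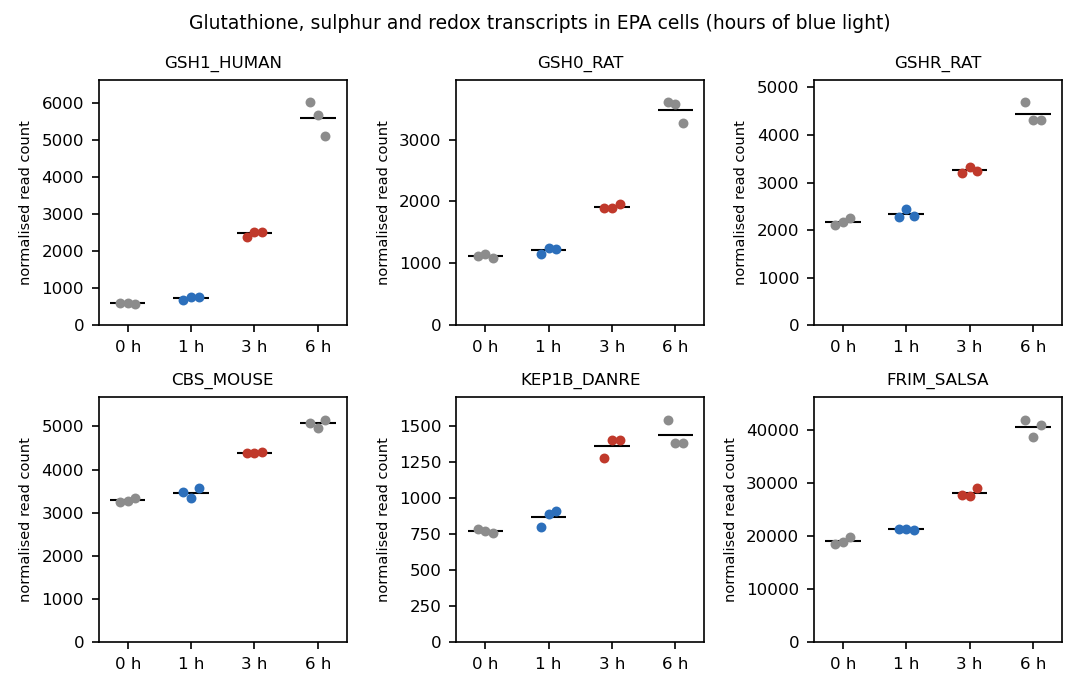
Normalised read counts (vertical axis, from 0) of 6 genes in EPA cells at 0, 1, 3 and 6 h of blue light; points are the 3 libraries and the line is their mean. In each panel the libraries at 3 h (red) lie above those at 1 h (blue), and for GSH1_HUMAN the mean at 3 h was 2479 against 736 at 1 h.

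C1TM_BOVIN (MTHFD1L), the mitochondrial enzyme that releases formate from folate in one-carbon metabolism, was the other gene past the thresholds of the study, with 1473, 1501 and 1461 normalised counts at 3 h against 713, 698 and 643 at 1 h. That is a 2.16-fold difference of the means, with no overlap (log2 fold change 1.11 ± 0.06, adjusted p = 4.2e-05, edgeR). The mean was 622 ± 19.5 at 0 h and 1623 ± 100 at 6 h (SD, n = 3 each), and the steps from 0 h to 1 h (0.14, adjusted p = 0.62, edgeR) and from 3 h to 6 h (0.13, adjusted p = 0.27, edgeR) did not pass the test.

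3 further genes of folate and methionine metabolism, singled out after their values were seen, had no overlap between the times. AL1L2_HUMAN (ALDH1L2), a mitochondrial folate enzyme that makes NADPH, had 1379, 1392 and 1347 at 3 h and 720, 734 and 766 at 1 h (0.89 ± 0.05, adjusted p = 8.7e-05, edgeR). METK2_MOUSE (MAT2A), which makes the methyl donor S-adenosylmethionine, had 3571, 3416 and 3397 at 3 h and 1984, 1877 and 1971 at 1 h (0.83 ± 0.08, adjusted p = 0.0015, edgeR), and it averaged 8114 ± 1010 at 6 h (SD, n = 3). GLYM_HUMAN (SHMT2), which splits serine into glycine and a folate-bound carbon in mitochondria, had 3167, 2873 and 3152 at 3 h and 2265, 2273 and 2254 at 1 h (0.44 ± 0.05, adjusted p = 0.0037, edgeR). None of these calls was lost when any 1 of the 12 libraries was left out. With the 6 libraries at 1 h and 3 h alone, the GLYM call was lost (adjusted p = 0.063, edgeR). MTDC_CHICK (MTHFD2), the mitochondrial folate enzyme that acts just before MTHFD1L, had 3812, 4014 and 3914 at 3 h and 3349, 3533 and 3506 at 1 h, and at 0.18 ± 0.04 did not pass the test (adjusted p = 0.13, edgeR). The enzymes that make serine from a glycolytic intermediate moved less, with SERC_MOUSE (PSAT1) at 0.32 ± 0.05 (adjusted p = 0.027, edgeR) and SERA_BOVIN (PHGDH) at 0.25 ± 0.04 (adjusted p = 0.019, edgeR), and both calls were lost without some libraries, 7 of 12 for SERC_MOUSE and 5 of 12 for SERA_BOVIN.

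GLYM, SERC and SERA, like CBS and CGL, belong to the list of the integrated stress response and amino acid limitation. Of its 37 genes tested, 10 were higher at 3 h (27%, against 0.402% of all genes) and 2 lower (0.108% of all genes). With p left unadjusted and under 0.05, 19 members rose and 7 fell, where 3.99% of all genes rose and 3.43% fell. DESeq2, with its p adjusted and held under 0.05, called 15 up and 6 down, so members went both ways. Over all genes it called 339 up and 231 down. The lowest log2 fold change in the list was -0.299, while the members named in this paragraph all rose. The median log2 fold change was 0.17, and this list too was chosen with earlier results of these data known. ASNS_MOUSE, asparagine synthetase, a classic ATF4 target, had 334, 320 and 323 at 3 h and 231, 215 and 218 at 1 h, with no overlap (0.56 ± 0.06, adjusted p = 0.0039, edgeR). Its call was lost with the 6 libraries at 1 h and 3 h alone (adjusted p = 0.069, edgeR). ALAT2_HUMAN (GPT2), a mitochondrial alanine aminotransferase, had 1942, 2009 and 2027 at 3 h and 1512, 1524 and 1488 at 1 h, again with none shared (0.40 ± 0.04, adjusted p = 0.0039, edgeR). STC2_MOUSE, the secreted protein stanniocalcin-2, had a log2 fold change of 0.34 ± 0.05 (adjusted p = 0.014, edgeR), and CTR3_HUMAN, a transporter of cationic amino acids, of 0.22 ± 0.03 (adjusted p = 0.027, edgeR); leaving out 1 library lost the STC2 call in 5 of 12 cases and the CTR3 call in 9.

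The ATF4 transcripts themselves were not called. ATF4_DANRE was the name of 2 assembled genes, with log2 fold changes of 0.13 ± 0.03 (adjusted p = 0.15, edgeR) and 0.00 ± 0.05 (adjusted p = 1.0, edgeR). The first of them had been higher at 1 h than at 0 h (0.58, adjusted p = 1.4e-05, edgeR). DDIT3_MOUSE (CHOP), a stress transcription factor downstream of ATF4, had 1769, 1729 and 1770 at 3 h and 1788, 1765 and 1749 at 1 h, overlapping groups that differed by -0.01 ± 0.03.

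Transporters of amino acids were among the genes called higher. SATT_BOVIN (SLC1A4), a neutral amino acid transporter of serine and alanine, had 9799, 9797 and 10019 at 3 h and 7072, 7457 and 7362 at 1 h, with no overlap (0.44 ± 0.03, adjusted p = 0.00015, edgeR). S38A3_RAT (SLC38A3), a glutamine transporter, had 2175, 2214 and 2319 at 3 h and 1704, 1642 and 1664 at 1 h (0.42 ± 0.04, adjusted p = 0.00082, edgeR). MOT10_DANRE (SLC16A10), a transporter of aromatic amino acids, had 1037, 1060 and 1052 at 3 h and 636, 713 and 676 at 1 h (0.64 ± 0.05, adjusted p = 0.00038, edgeR). The 3 were chosen after their values were seen, and each kept its call when any 1 library was left out. With the 6 libraries at 1 h and 3 h alone, the S38A3 call was lost (adjusted p = 0.052, edgeR). AAAT_MOUSE (SLC1A5), another neutral transporter, had a log2 fold change of 0.43 ± 0.07 (adjusted p = 0.049, edgeR) and lost its call without 9 of the 12 libraries.

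The 2 chains of a single transporter moved in opposite directions. LAT1_RABIT (SLC7A5), the light chain that carries large neutral amino acids, had 1021, 981 and 967 at 3 h and 744, 766 and 759 at 1 h (0.39 ± 0.05, adjusted p = 0.018, edgeR); its call was lost without any 1 of the 6 libraries at these times. 4F2_MOUSE (SLC3A2), the heavy chain that brings LAT1 to the membrane, had 5204, 5329 and 5446 at 3 h and 6330, 6700 and 6628 at 1 h, a fall of 18.7% (log2 fold change -0.30 ± 0.03, adjusted p = 0.0017, edgeR). Neither gene overlapped between the times, with LAT1 higher and 4F2 lower at 3 h. With the 6 libraries at 1 h and 3 h alone, both calls were lost (adjusted p = 0.059 for LAT1 and 0.066 for 4F2, edgeR).

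Aminoacyl-tRNA synthetases were the list with the largest share of members called, though all lists were chosen with earlier results of these data known. Of 19 tested, 10 were higher at 3 h (52.6%, against 0.402% of all genes) and 0 lower, the other 9 also had log2 fold changes above 0, and the list ran from 0.01 to 0.38 with a median of 0.22. Several of the 10 calls were lost when 1 library was left out, as given below. SYTC_BOVIN, which loads threonine, had 2400, 2340 and 2412 at 3 h and 1783, 1843 and 1885 at 1 h (0.38 ± 0.03, adjusted p = 0.00038, edgeR). SYAC_MOUSE, which loads alanine, had 5061, 5105 and 5149 at 3 h and 4053, 4118 and 4148 at 1 h (0.31 ± 0.02, adjusted p = 0.00011, edgeR). The libraries of both genes were separate between the times, by small but even steps.

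SYCC_MOUSE, for cysteine, had 1870, 1845 and 1907 at 3 h and 1547, 1533 and 1559 at 1 h (0.28 ± 0.03, adjusted p = 0.0064, edgeR). SYYC_DANRE, for tyrosine, had 1505, 1449 and 1435 at 3 h and 1189, 1236 and 1197 at 1 h (0.28 ± 0.03, adjusted p = 0.0064, edgeR), and SYLC_HUMAN, for leucine, had a like log2 fold change of 0.28 ± 0.04 (adjusted p = 0.018, edgeR), lost as a call without any 1 of the 6 libraries at these times. The calls of SYQ_HUMAN, SYSC_DANRE, SYVC_TAKRU, SYIC_HUMAN and SYMC_XENLA were lost without 4, 4, 9, 11 and 9 of the 12 libraries. With the 6 libraries at 1 h and 3 h alone, only SYAC_MOUSE (adjusted p = 0.025, edgeR) and SYLC_HUMAN (adjusted p = 0.047, edgeR) kept their calls. Tested against a fold of 1.2 (glmTreat), no synthetase kept its call. The enzymes for arginine (SYRC_CHICK, 0.01 ± 0.03) and lysine (SYK_MOUSE, 0.03 ± 0.02) stood lowest in the list and did not pass the test. A pair of translation initiation proteins, chosen after their values were seen, were also called, IF2B_HUMAN (eIF2 beta) at 0.26 ± 0.03 (adjusted p = 0.0047, edgeR) and EI2BD_RAT (eIF2B delta) at 0.27 ± 0.03 (adjusted p = 0.0083, edgeR), the second lost without 3 of the 12 libraries.

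**Figure D3:**
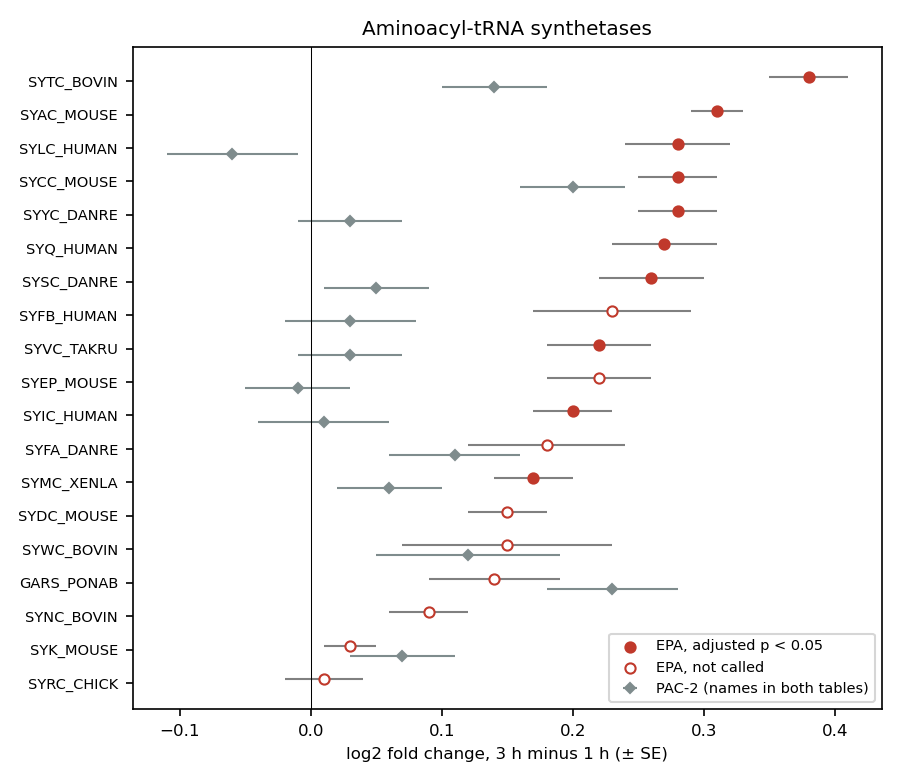
Log2 fold change, 3 h minus 1 h, of the 19 aminoacyl-tRNA synthetases tested in EPA cells (circles, filled where the adjusted p was under 0.05) and of the 14 whose names also occur in the PAC-2 table (diamonds); bars are SE. All EPA values lie above 0, up to 0.38.

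Among transcripts that receded, the stress gene DDT4L_ONCMY changed most beyond its error. DDT4L (DDIT4L, or REDD2) encodes an inhibitor of the growth-promoting kinase complex mTORC1. It had 4225, 4338 and 4343 normalised counts at 3 h, against 7798, 8056 and 7805 at 1 h, a fall of 45.5% with the libraries far apart. The log2 fold change was -0.87 ± 0.03 (adjusted p = 5.8e-06, edgeR). The means in the other EPA libraries were 1794 ± 68.8 at 0 h and 5602 ± 169 at 6 h (SD, n = 3 each), so the level at 3 h stayed above the dark level and that at 6 h lay between those at 3 h and 1 h. The 1 h level exceeded the 0 h level by 2.14 on the log2 scale (adjusted p = 4.1e-09, edgeR) and the 6 h level exceeded the 3 h level by 0.38 (adjusted p = 0.0015, edgeR); these contrasts share libraries with the 3 h against 1 h one.

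In TRIB2_HUMAN and PEX3_BOVIN the level was also highest at 1 h and lowest at 0 h among 0, 1 and 3 h, with smaller steps. TRIB2_HUMAN, a pseudokinase of the Tribbles family, had 1307, 1314 and 1292 at 3 h and 1538, 1559 and 1599 at 1 h (-0.26 ± 0.03, adjusted p = 0.0046, edgeR), with a mean of 1215 ± 27.5 at 0 h (SD, n = 3). PEX3_BOVIN, a peroxisome assembly protein singled out after its values were seen, had 580, 554 and 542 at 3 h and 728, 701 and 678 at 1 h (-0.33 ± 0.05, adjusted p = 0.018, edgeR), with a mean of 374.9 ± 6.44 at 0 h (SD, n = 3). Neither gene overlapped between 3 h and 1 h, and at 1 h both were above their dark level, TRIB2 by 0.37 (adjusted p = 0.00032, edgeR) and PEX3 by 0.91 (adjusted p = 1.6e-05, edgeR) on the log2 scale. TRIB2 kept its call without any 1 library, while PEX3 lost its call in 4 of the 12 fits that left out 1 library, among them those without 3 h replicate 2 and without 1 h replicate 1. Both calls were lost with the 6 libraries at 1 h and 3 h alone (adjusted p = 0.086 and 0.17, edgeR).

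Some assembled genes without a protein name fell further. TRINITY_DN1228_c1_g1 had 2450, 2419 and 2607 at 3 h and 5038, 4910 and 4823 at 1 h, a mean of 1021 ± 15.5 at 0 h (SD, n = 3) and a log2 fold change of -0.98 ± 0.07 (adjusted p = 0.00038, edgeR). TRINITY_DN799_c0_g1 had 487, 473 and 610 at 3 h and 1261, 1197 and 1240 at 1 h, with a log2 fold change of -1.24 ± 0.14 (adjusted p = 0.0047, edgeR). Both, chosen after their values were seen, were without overlap and kept their calls when any 1 library was left out. With the 6 libraries at 1 h and 3 h alone, the call of TRINITY_DN799_c0_g1 was lost (adjusted p = 0.055, edgeR). TRINITY_DN58505_c0_g1 had 165, 234 and 227 at 3 h and 981, 711 and 905 at 1 h (-2.05 ± 0.28, adjusted p = 0.017, edgeR), a call lost without 5 of the 12 libraries.

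TRINITY_DN1581_c9_g1 and TRINITY_DN47220_c6_g1 had 0 counts in every library at 3 h, at least 28.7-fold and 29.1-fold lower than their means at 1 h against a floor of 3 counts per library. Their adjusted p was 0.024 and 0.028 (edgeR), and the calls were lost without 9 and 10 of the 12 libraries. As estimated counts of assembled genes can fall to 0 when reads are assigned to a near-identical copy, such values are uncertain; 22 tested genes were at 0 in all libraries at 3 h and above 0 in all at 1 h, and 16 showed the reverse.

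A pair of other stress genes differed less between the times, at levels well above those in the dark. SESN2_MOUSE, sestrin-2, another brake on mTORC1, had 977, 966 and 964 at 3 h and 1138, 1124 and 1115 at 1 h, against a mean of 361.1 ± 0.842 at 0 h (SD, n = 3). Its libraries did not overlap, but the adjusted p was 0.052 (-0.22 ± 0.04, edgeR). CHAC1_DANRE, a glutathione-degrading enzyme induced through ATF4, had 8530, 8548 and 8445 at 3 h and 9211, 10100 and 9894 at 1 h, against a mean of 2948 ± 162 at 0 h (SD, n = 3). Its difference between 3 h and 1 h was -0.19 ± 0.05 and did not pass the test (adjusted p = 0.23, edgeR).

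**Figure D4:**
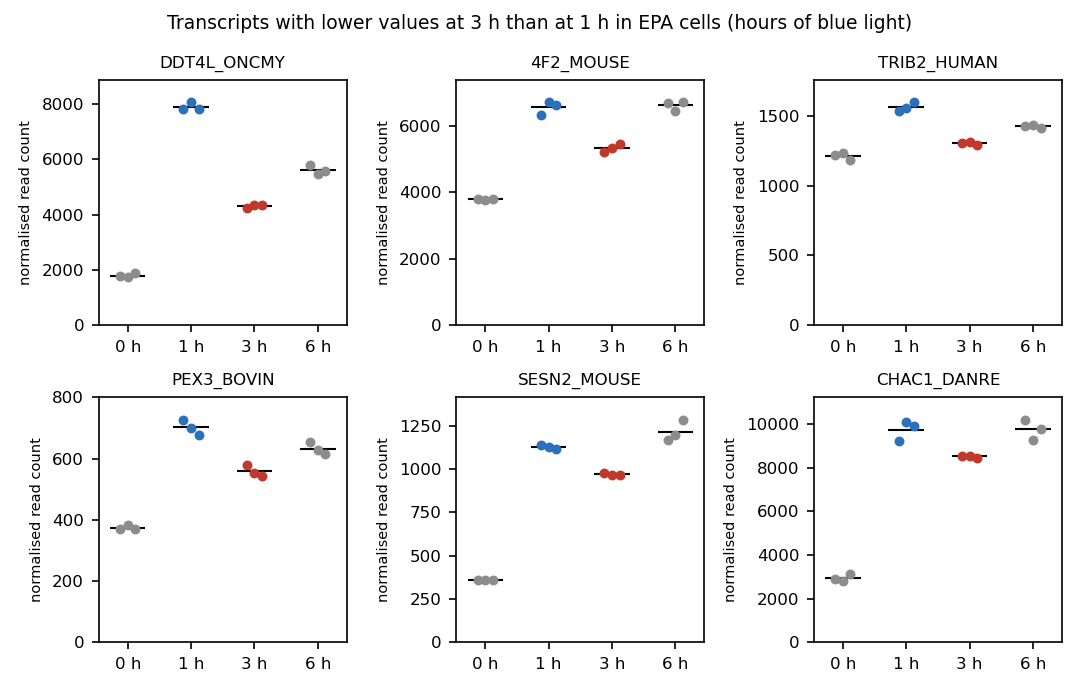
Normalised read counts (vertical axis, from 0) of 6 genes in EPA cells at 0, 1, 3 and 6 h of blue light, with the 3 libraries as points and their mean as a line. In all 6 panels the libraries at 3 h (red) lie below those at 1 h (blue), by 45.5% for DDT4L_ONCMY; SESN2_MOUSE and CHAC1_DANRE did not pass the test.

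The other named genes called lower changed by at most 0.43 in size on the log2 scale, and a few are given here. M4K2_HUMAN (MAP4K2), a stress-pathway kinase, had 280, 261 and 255 at 3 h and 335, 375 and 365 at 1 h (-0.43 ± 0.06, adjusted p = 0.018, edgeR). AMOL2_DANRE (angiomotin-like 2), a junction protein and the 1 member called of 44 tested from the list of SRF and YAP targets and actin cytoskeleton, had 1692, 1706 and 1839 at 3 h and 2083, 2080 and 2182 at 1 h (-0.28 ± 0.05, adjusted p = 0.034, edgeR). Neither overlapped between the times, and both calls were lost without some of the libraries. Over all genes tested, 0.51% were called in either direction and 0.108% were called lower. EPHA2_HUMAN (-0.27 ± 0.04), an ephrin receptor, TENS3_HUMAN (-0.25 ± 0.04), an adhesion protein, CP24A_HUMAN (-0.23 ± 0.03), which breaks down vitamin D, FOXP2_MOUSE (-0.21 ± 0.04), a transcription factor, and CCND2_CHICK (-0.17 ± 0.02), cyclin D2, changed less. These 5 calls were each lost without at least 5 of the 12 libraries, and these genes and M4K2 were chosen after their values were seen.

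Immediate early genes are a class that usually responds first to a stimulus. Apart from MAFF, which was higher, 0 of the 20 genes tested from the list of immediate early transcription factors, 0 of 36 other immediate early genes and 0 of 13 MAP kinase feedback inhibitors were called by edgeR at an adjusted p under 0.05, and with 0.51% of all genes called, lists of this size would show few calls in any case. At an unadjusted p under 0.05 the first list had 5 higher and 3 lower, the second 6 higher and 5 lower and the third 0 higher and 3 lower. By that rule, 3.99% of all genes were higher and 3.43% lower. DESeq2 called 4 higher and 1 lower, 3 higher and 3 lower, and 0 in either direction, at an adjusted p under 0.05. Over all 25656 assembled genes, DESeq2 called 339 higher and 231 lower at that adjusted p. FOS_CYPCA, which heads this class, had 251, 304 and 265 at 3 h and 293, 304 and 266 at 1 h, overlapping groups that differed by -0.07 ± 0.12.

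Heat-shock proteins (35 tested), the unfolded protein response (32), p53 targets (19), NF-kappaB targets (17), TGF-beta, BMP and Notch targets (25), hypoxia and glycolysis (30), splicing kinases and SR proteins (38), DNA replication and mitosis (38), fibroblast matrix (51), the proteasome (35) and sterol synthesis (27) each had 0 members called by edgeR, a count near that which 0.51% of all genes would give and so no result about these lists. Their median log2 fold changes ran from -0.08, in sterol synthesis, to 0.08, in NF-kappaB targets. Sterol synthesis had 0 members higher and 8 of 27 lower at an unadjusted p under 0.05, and heat-shock proteins 6 of 35 higher and 0 lower. By that rule, 3.99% of all genes were higher and 3.43% lower. The log2 fold change was above 0 for 4 of the 27 sterol genes and for 26 of the 35 heat-shock genes. Summed over these 11 lists, 32 genes were higher and 23 lower at an unadjusted p under 0.05, and DESeq2, with its p adjusted and held under 0.05, called 5 higher and 9 lower. DESeq2 called 339 higher and 231 lower in the same way over all 25656 assembled genes. Ribosome biogenesis had 1 of 34 called, NOP56_PONAB (0.62 ± 0.11, adjusted p = 0.045, edgeR), a call lost without 10 of the 12 libraries.

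Genes of the clock, of DNA repair and of heme handling are those that light is known to induce in zebrafish cells. In EPA cells, edgeR called 1 of 39 clock genes and 1 of 23 repair genes higher at 3 h (0.402% of all genes). Of 34 heme and mitochondrial genes named in the study it called 3 higher, and 0 were lower in each list. DESeq2 called 2, 2 and 5 of these lists higher at an adjusted p under 0.05. By DESeq2, 339 of all 25656 assembled genes were higher. The heme list comes from a study of these same libraries and is no independent evidence of direction. CRY1_SYLBO, a cryptochrome and so a clock repressor, had 591, 622 and 591 at 3 h and 442, 432 and 460 at 1 h, with no overlap (0.43 ± 0.05, adjusted p = 0.0064, edgeR). Its call was lost with the 6 libraries at 1 h and 3 h alone (adjusted p = 0.078, edgeR). The other cryptochrome 1 names, CRY1_CHICK (0.09 ± 0.04) and CRY1_MOUSE (0.10 ± 0.06), were not called. PER2_CHICK, a clock repressor that light induces in zebrafish, was the name of 2 assembled genes; the more abundant had 783, 839 and 797 at 3 h and 694, 748 and 776 at 1 h (0.13 ± 0.09, adjusted p = 0.85, edgeR), and the other stood at -0.03 ± 0.10 (adjusted p = 1.0, edgeR).

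DDB2_DANRE, a sensor of ultraviolet damage, had 173, 122 and 147 at 3 h and 73.5, 58.9 and 68.3 at 1 h, a 2.20-fold difference without overlap (1.14 ± 0.17, adjusted p = 0.019, edgeR). It rested on few counts, and the call was lost without 7 of the 12 libraries, among them every library at 1 h. XPC_HUMAN, another sensor of DNA damage, had 501, 493 and 477 at 3 h and 387, 395 and 386 at 1 h, which did not overlap but did not pass (0.33 ± 0.08, adjusted p = 0.17, edgeR). DNA photolyase was listed only behind another protein, for the Trinity gene UIF_SALSA, at 0.11 ± 0.05 (adjusted p = 0.75, edgeR).

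ABCB6_XENTR, a porphyrin transporter, was the name of 2 assembled genes. The rarer one, TRINITY_DN47926_c0_g1, which the study lists as cavefish abcb6a, had 413, 442 and 388 at 3 h and 270, 265 and 252 at 1 h (0.66 ± 0.06, adjusted p = 0.0018, edgeR), and the more abundant had 1773, 1838 and 1717 at 3 h and 1968, 1917 and 1936 at 1 h (-0.13 ± 0.05, adjusted p = 0.57, edgeR). The rarer gene was higher without overlap and the other was not, and with their counts summed the difference turned to -0.01 (adjusted p = 0.95, edgeR), so a split of reads between near-identical copies cannot be told apart from a change in one of them. SDHB_DANRE, a subunit of succinate dehydrogenase, had a like pair, with 577, 592 and 592 at 3 h and 415, 454 and 439 at 1 h in the rarer gene (0.43 ± 0.05, adjusted p = 0.0064, edgeR) and 0.00 ± 0.04 in the other (adjusted p = 1.0, edgeR); with the counts of both summed the difference was 0.05 (adjusted p = 0.68, edgeR) and the call was lost. CBR1_RABIT, a carbonyl reductase, was at 0.27 ± 0.05 (adjusted p = 0.047, edgeR), a call lost without 10 of the 12 libraries and with RLE or upper-quartile factors. HEBP2_HUMAN, a heme-binding protein, had 886, 820 and 827 at 3 h and 772, 776 and 846 at 1 h, overlapping groups (0.08 ± 0.06, adjusted p = 0.87, edgeR).

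More genes were called higher in the zebrafish line PAC-2 over the same 2 times. At the thresholds of the study 103 of its genes were higher (0.44%) and 0 lower (0%) at 3 h against 1 h by edgeR. DESeq2 called 194 higher and 54 lower in PAC-2 at these thresholds, against 57 and 60 in EPA. At an adjusted p under 0.05, edgeR called 1705 higher (7.28%) and 1240 lower (5.3%) in PAC-2. Counts summed per protein name allowed a test of the difference between the lines for 5407 names. EPA lay above PAC-2 by at least 1 on the log2 scale for 1 name (0.0185%) and below for 26 (0.481%) at an adjusted p under 0.05, and with any size for 575 (10.6%) and 488 (9.03%).

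For some glutathione, one-carbon and transporter genes the change was larger in EPA. GSH1 had a log2 fold change of 1.75 in EPA and 0.79 in PAC-2, a difference of 0.97 ± 0.08 (adjusted p = 7.7e-09, edgeR). AL1L2 had 0.89 in EPA and 0.03 in PAC-2 (difference 0.86 ± 0.07, adjusted p = 2.9e-09, edgeR), and GSH0 had 0.66 in EPA and -0.06 in PAC-2 (0.72 ± 0.07, adjusted p = 3.8e-07, edgeR). Of 14 aminoacyl-tRNA synthetase names compared, 7 were further up in EPA and 0 in PAC-2, with medians of 0.22 in EPA and 0.05 in PAC-2. The other lists that hold these genes were split, with 6 of 21 names of the Nrf2 and redox list above and 6 below (median difference -0.03), and 5 of 19 of the integrated stress response list above and 6 below (-0.02). Among MAP kinase feedback inhibitors, EPA was above for 5 of 7 names and below for 0, with medians of -0.06 in EPA and -0.36 in PAC-2. Over all names compared, EPA was above for 10.6% and below for 9.03%.

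Among clock genes EPA was below PAC-2 for 7 of 16 names and above for 1, and among repair genes below for 6 of 13 and above for 1, where 9.03% of all names were below and 10.6% above. PER2_CHICK had 0.09 in EPA and 3.96 in PAC-2 (difference -3.87 ± 0.09, adjusted p = 6.4e-18, edgeR), and DDB2_DANRE, which was called in both lines, 1.14 in EPA and 2.46 in PAC-2 (-1.32 ± 0.17, adjusted p = 9e-06, edgeR). Of 23 heme and mitochondrial names, EPA was below PAC-2 for 14 and above for 0. Many names on this list were chosen for their response to light in these same PAC-2 libraries, so the direction is largely set by that choice and is no independent evidence. DDT4L_ONCMY was -0.87 in EPA and 0.24 in PAC-2 (-1.11 ± 0.06, adjusted p = 5.3e-12, edgeR). Between 1 h and 3 h it fell in EPA and rose in PAC-2 (adjusted p = 0.00016 for the rise, edgeR).

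**Figure D5:**
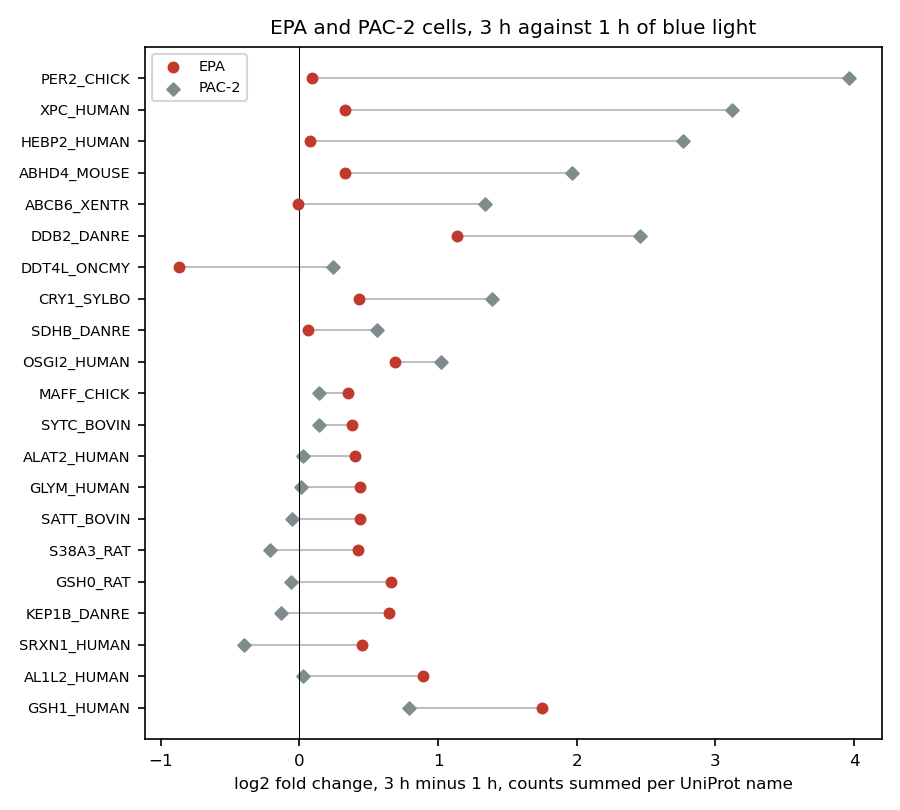
Log2 fold change, 3 h minus 1 h, of 21 protein names in EPA cells (circles) and PAC-2 cells (diamonds), with counts summed per UniProt name and lines joining the pair. PER2_CHICK was at 0.09 in EPA and 3.96 in PAC-2, and GSH1_HUMAN at 1.75 in EPA and 0.79 in PAC-2.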

How the data were processed

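Poly-A RNA of EPA and PAC-2 cells was sequenced as paired-end reads. Per the study's methods, the authors assembled transcripts with Trinity, named them by their UniProt and PFAM matches, dropped those under 5 TPM and estimated counts per assembled gene with salmon; replicates were not pooled. These deposited values are expected (estimated) counts, which were rounded to whole numbers. Whether the libraries kept strand is unclear from the labels. Genes are given by the UniProt entry name of the first match, often from another species.

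The 12 EPA libraries were fitted together with edgeR 4.0.16 (limma 3.58.1, R 4.3.3; filterByExpr, TMM, robust quasi-likelihood test, 8 residual degrees of freedom), with 3 h minus 1 h as the contrast and Benjamini-Hochberg adjustment over 23118 genes. SE is the log2 fold change divided by the square root of F. Normalised read counts are TMM-scaled to the geometric mean library and are not comparable between genes, as lengths were not used. EPA and PAC-2 were compared by an interaction of line and time on counts summed per UniProt name. PAC-2 libraries held 25642129 to 41784075 counts. The median biological coefficient of variation of EPA was 0.132. An exact permutation test of 3 libraries against 3 cannot go below p = 0.1, so none was used. A 3-count floor covers counting error only.

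Gene lists (22) and marker lists (8) and all members were chosen with earlier results of these data known. Genes were named by rule: the 12 largest named changes in each direction at the thresholds of the study with separate libraries (2 qualified); up to 4 called members of each list in each direction; genes the study names; and up to 2 called genes without a name in each direction (0 qualified at its thresholds). All other genes named were chosen after their values were seen. The alternatives were DESeq2 1.42.0, RLE and upper-quartile factors, no filter, the 6 libraries alone, glmTreat, a replicate block, counts summed per name and leaving out each library; for the lines, the most abundant gene per name and, chosen after seeing the data, names matched by prefix. The scripts were tested on simulated data. FPKM and read-count tables of PAC-2 against a genome were not used here. No sequences are shown.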

Additional observations from a re-analysis of the deposited data

Results flagged for a closer look

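For the 21 protein names below, the change from 1 h to 3 h differed between EPA and PAC-2 in the test of that difference (edgeR, adjusted p under 0.05), given as EPA minus PAC-2 on the log2 scale. EPA was above PAC-2 for GSH1_HUMAN (0.97), AL1L2_HUMAN (0.86), SRXN1_HUMAN (0.85), KEP1B_DANRE (0.78), GSH0_RAT (0.72) and S38A3_RAT (0.63). It was above by less for SATT_BOVIN (0.49), GLYM_HUMAN (0.43), ALAT2_HUMAN (0.37), SYTC_BOVIN (0.24) and MAFF_CHICK (0.21). EPA was below PAC-2 for PER2_CHICK (-3.87), XPC_HUMAN (-2.79), HEBP2_HUMAN (-2.69), ABHD4_MOUSE (-1.63), ABCB6_XENTR (-1.35), DDB2_DANRE (-1.32) and DDT4L_ONCMY (-1.11). The gap was under 1 for CRY1_SYLBO (-0.96), SDHB_DANRE (-0.50) and OSGI2_HUMAN (-0.33). KEP1A_DANRE, the second Keap1 name and not among the 21, went the other way from KEP1B_DANRE. It had 0.30 in EPA and 0.57 in PAC-2, a difference of -0.27 (adjusted p = 0.022, edgeR). The 2 tables were assembled separately, so a name can stand for different genes in each line, which was not tested. The ABCB6_XENTR value uses the sum of 2 EPA genes, of which the rarer was called higher at 3 h on its own (0.66).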

How the results depend on the processing

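At the thresholds of the study, the 2 genes called higher became 57 with DESeq2, 0 with the 6 libraries alone, 4 at an adjusted p under 0.05 and 93 with any fold; the 0 called lower became 60, 0, 5 and 25. Leaving out single libraries gave 2 higher and 0 lower each time. At an adjusted p under 0.05, the 93 higher and 25 lower became 339 and 231 with DESeq2, 20 and 2 with the 6 libraries alone, 17 and 3 with glmTreat, and 42 to 91 and 7 to 32 without 1 library; the 25 lower became 66 with counts summed per name. In PAC-2, the 103 higher and 0 lower became 194 and 54 with DESeq2, and 74 to 83 and 0 to 2 without 1 library. Between the lines, the 1 name with EPA above became 2 with the most abundant gene per name, 3 with names matched by prefix (chosen after seeing the data) and 0 to 8 without 1 library, and the 26 below became 21 to 26 without 1 library. The 6 libraries alone leave fewer samples for the spread, and the cause of these shifts was not tested. Replicate numbers did not pair the libraries (same-number correlations of 0.02, 0.01 and -0.01); with a replicate block the 2 and 0 at the thresholds of the study stayed 2 and 0, and the 93 higher and 25 lower became 63 and 9.

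ABCB6_XENTR turned to -0.01 with counts summed per name. Of the other values for single genes under an alternative, 528 kept their side of the threshold and 142 kept their direction but not the threshold, among them SDHB_DANRE at 0.05 with summed counts.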

Other observations

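A few genes that belong to none of the lists were also higher at 3 h in EPA cells. LONM_BOVIN, the mitochondrial protease LONP1, averaged 1371 ± 21.7 normalised counts at 3 h and 1062 ± 21.2 at 1 h (SD, n = 3 each), a log2 fold change of 0.37 ± 0.03 (adjusted p = 0.00082, edgeR). ABHD4_MOUSE, a lipid hydrolase, had 1888, 1836 and 1878 at 3 h and 1449, 1419 and 1576 at 1 h, a log2 fold change of 0.33 ± 0.04 (adjusted p = 0.011, edgeR). The libraries of both genes were separate between the times, but the ABHD4 call was lost without 4 of the 12 libraries. TRINITY_DN3561_c2_g2, which has no protein name, had 647, 650 and 787 at 3 h and 301, 317 and 311 at 1 h (1.17 ± 0.10, adjusted p = 0.0011, edgeR), narrowly short of the thresholds of the study. These 3 genes were chosen after their values were seen.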
